A study of Mus musculus with 12 samples.

Results

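The proteasome genes of Dis3l knockout and wild-type mouse material were taken as every protein-coding symbol, present in both comparison tables, that begins with Psma, Psmb, Psmc, Psmd, Psme, Psmf or Psmg followed by a digit. This choice used the name only and gave 48 genes, of 45706 in the blastocyst table and 13009 in the embryonic stem (ES) cell table. Psmc3ip meets the rule by its prefix but encodes a meiotic recombination factor, and it is counted among the 48 and described apart. Dis3l codes for an exonuclease of the exosome in the cytoplasm, a complex that shortens and destroys RNA. The labels list 4 groups of 3 samples: blastocysts Dis3L KO, blastocysts Dis3L WT, ES cells Dis3L KO and ES cells Dis3L WT. Blastocysts were collected 96 hours after the hCG injection of hormone-stimulated females and sequenced as single embryos, from cDNA cut by the transposase Tn5. ES cells were derived from blastocysts on inactivated mouse embryonic fibroblasts, grown with the cytokine LIF, and sequenced as stranded libraries after depletion of ribosomal RNA. The labels do not give the mouse strain, the form of the knockout allele, or whether the ES samples are separate lines, so that p-values measure the spread between these samples only.

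The proteasome is the protease that degrades proteins carrying ubiquitin chains. Its core particle is a barrel whose outer rings, made of alpha subunits (Psma genes), gate the entrance, and whose inner rings, made of beta subunits (Psmb genes), hold the proteolytic sites. The regulatory particle caps the barrel: its ATPases (Psmc genes) unfold the substrate, and its non-ATPase subunits (Psmd genes) bind and remove ubiquitin. Activators (Psme genes) can cap the barrel in its place, an inhibitor (Psmf1) binds it, and dedicated chaperones assist assembly of the base of the cap (Psmd5, Psmd9, Psmd10) and of the core (Psmg genes). In mammals the transcription factor Nfe2l1 raises proteasome gene transcription through antioxidant response elements when proteasome activity is low.

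Both tables hold the authors' comparison results, without stating which genotype is the numerator, so each has a positive side, where a gene with a positive log2 fold change is higher, and a negative side. No genotype was assigned to a side. The whole reads behind the authors' means were recovered, which gave 6 count columns for blastocysts (3 per side) and 4 for ES cells (2 per side, against 6 labelled ES samples). The columns could not be tied to labelled samples and are numbered within a side. Recovered genes summed to 1156865 to 2716954 reads per blastocyst column and 932725 to 1527368 per ES column. All counts of columns below are normalised counts, which are reads divided by the column's size factor. Dis3l, reported first as a check of the labels, had 26, 8 and 0 reads in the positive and 10, 4 and 8 reads in the negative blastocyst columns. These overlapped, and the authors' deposited table gave a log2 fold change of 0.28 ± 1.91 (SE). In ES cells Dis3l had 14 and 8 reads in the positive columns and 39 in each negative column, and the authors' deposited table gave -0.88 ± 0.33 (SE; adjusted p = 0.445, DESeq2 Wald test with Benjamini-Hochberg adjustment). The deposited ES fold changes appear shrunken towards 0 and the blastocyst ones do not, so sizes are not comparable between the tables.

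Defining markers were checked in the same way. Pluripotency and trophectoderm genes were present in blastocysts, where all 8 of 8 genes of each list were above 0. Of 8 fibroblast genes 2 were above 0, and Col1a1, Col1a2, Col3a1, Dcn, Lum and Postn were listed at 0. The fibroblast sum was at most 34.3 in a column. Of 4 immune genes 2 were above 0, with a sum of at most 4.06 in a column, and Lyz2 and Ptprc were listed at 0. In ES cells all 8 pluripotency genes and all 8 fibroblast genes were above 0. So were the 6 of 8 trophectoderm and the 4 of 6 primitive endoderm genes that the ES table holds. It holds none of the 4 immune genes.

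In blastocysts the proteasome genes lay almost all on the same side of 0. The authors' deposited table gave 42 of the 46 tested members a negative log2 fold change, against 51.7% of the 15209 tested genes, and a median of -0.53 among members against -0.04 over all tested genes. No single member passed the authors' adjusted p under 0.05 (0 of 46, lowest adjusted p = 0.546, DESeq2 Wald test), where 15 genes, or 0.0986% of those tested, did. At an unadjusted p under 0.05 there were 7 members (15.2%), all negative, against 6.21% of all tested genes. Of the 945 genes at that threshold 537 were negative. Members were measured more precisely than most genes, with a median SE of 0.40 against 0.92 over all tested genes, so these shares are not of like genes. In ES cells the same genes stood near 0: 29 of the 45 tested members were negative in the authors' deposited table, against 50.0% of 10739 tested genes, with a median of -0.04 against -0.00011. Without negative column 1 the ES median, taken from recovered reads, was 0.12. None was called there (0 of 45, lowest adjusted p = 0.858, DESeq2 Wald test, against 0.261% of genes), and 1 member, Psmd3, had an unadjusted p under 0.05, against 5.62% of genes. Psma8 and Psmb8 were listed at 0 in blastocysts and were not tested there, and Psmb8, Psmb9 and Psmb10 carry no adjusted p in the ES table.

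**Figure D1:**
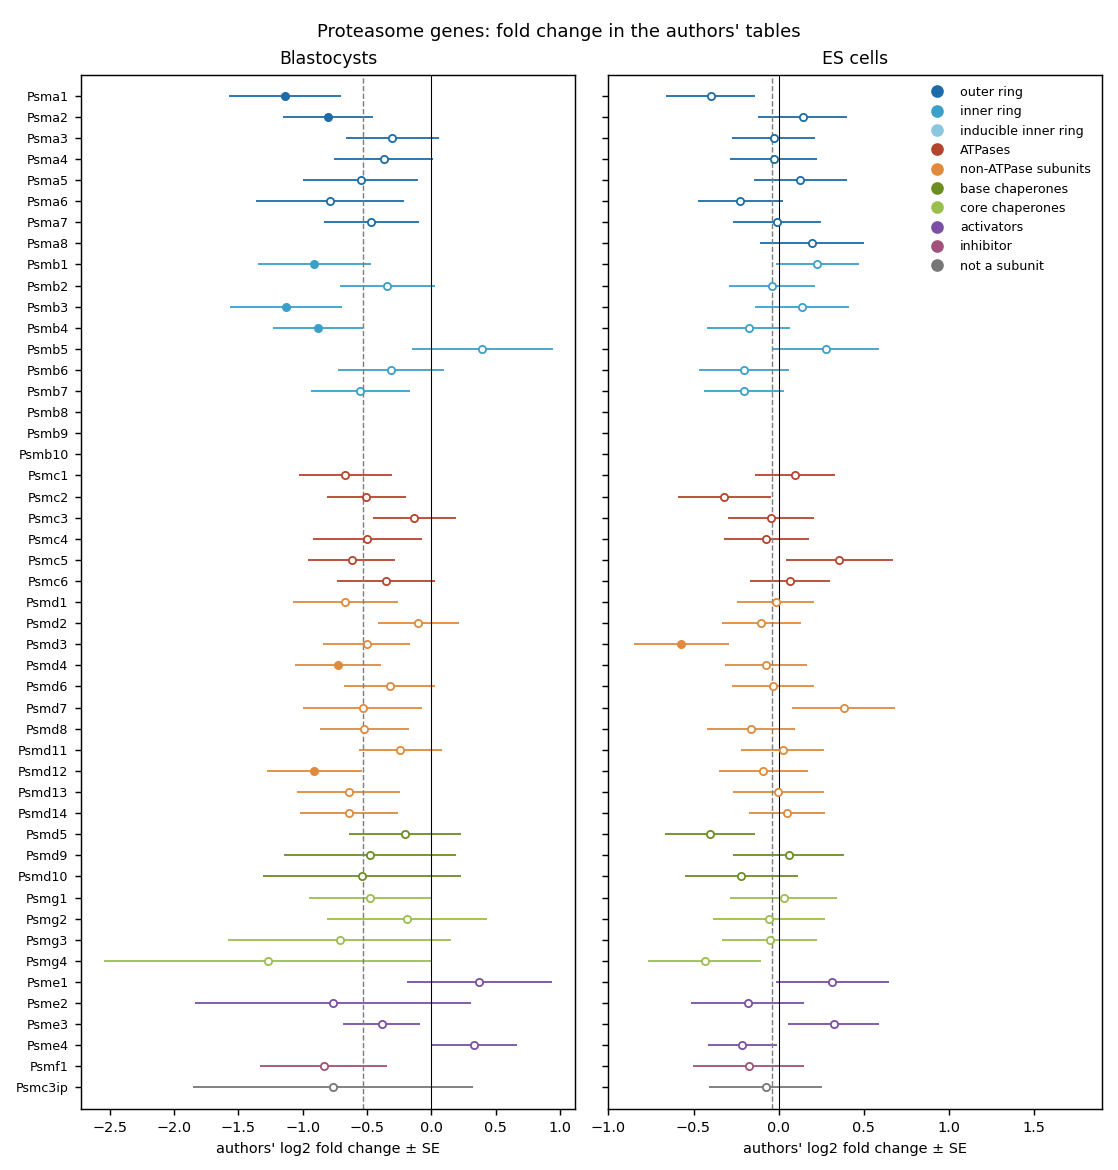
Authors' log2 fold change with its SE (x axis) of each proteasome gene (y axis, coloured by role) in blastocysts and ES cells. Filled points have an unadjusted p under 0.05, the dashed line is the members' median (-0.53 and -0.04), and Psmb8, Psmb9 and Psmb10 and genes without a test are not drawn; most blastocyst points lie left of 0, and ES points lie on both sides.

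The outer ring gives the first of the lowest values. Psma1 (chr7:114264606-114276118, GRCm38) encodes an alpha subunit and had normalised counts of 303, 193 and 162 in the positive columns of blastocysts and of 669, 274 and 506 in the negative ones. Negative column 2 lay below positive column 1, so that the sides overlapped, and the authors' deposited table gave -1.14 ± 0.44 (SE, unadjusted p = 0.00894). Psma2 (chr13:14613242-14625671), also an alpha subunit, had 277, 252 and 293 against 487, 370 and 578. Here every positive column was below every negative one, with -0.81 ± 0.35 (SE, unadjusted p = 0.021) in the authors' deposited table. All 7 tested outer ring genes were negative in blastocysts, from -1.14 to -0.30, with a median of -0.55. Psma7, an alpha subunit, had 393, 347 and 482 against 639, 348 and 702, which overlapped. In ES cells 5 of 8 outer ring genes were negative with a median of -0.02, and Psma1 had 117 and 126 against 168 and 173, with -0.40 ± 0.26 (SE, unadjusted p = 0.123) in the authors' deposited table. Its ES columns did not overlap, nor did those of Psma6, another alpha subunit, at 157 and 167 against 183 and 209. Psma3, an alpha subunit at -0.03 in the authors' deposited table, also stood apart in ES cells, at 204 and 205 against 213 and 206. Of 8794 ES genes with a mean of at least 20, 20.5% stood apart and lower.

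Psma8, the testis-enriched alternative to Psma7 in the outer ring, differed between the materials in presence. It was listed at 0 in every blastocyst column. In ES cells it had 85 and 63 reads in the positive columns against 81 and 48 in the negative ones, which overlapped (0.20 ± 0.31 (SE) in the authors' deposited table). Its ES level of 27.5 normalised counts per kb of exon was below the 49.5 of Psma1 and the 60.4 of Psma7.

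In the inner rings Psmb1, Psmb3 and Psmb4, constitutive subunits without proteolytic activity, gave 3 of the 7 lowest p-values. Psmb3 (chr11:97703399-97713500) had 364, 189 and 174 in the positive blastocyst columns against 656, 312 and 627, and the authors' deposited table gave -1.13 ± 0.44 (SE, unadjusted p = 0.00927). Psmb1 (chr17:15475721-15498276) had 296, 260 and 167 against 581, 232 and 544, with -0.91 ± 0.44 (SE, unadjusted p = 0.0391) in the authors' deposited table. In both genes negative columns 1 and 3 were high and negative column 2 lay within the positive range. Psmb4 (chr3:94884093-94886961) had 438, 294 and 322 against 736, 459 and 751, without overlap, and -0.88 ± 0.35 (SE, unadjusted p = 0.012) in the authors' deposited table. In ES cells these 3 genes were at 0.14 (Psmb3), 0.23 (Psmb1) and -0.18 (Psmb4), each within 1 SE of 0 in the authors' deposited table. Psmb2, also without proteolytic activity, had 280, 221 and 309 against 381, 274 and 371 in blastocysts, which overlapped. Its blastocyst value in the authors' deposited table was -0.34 ± 0.37 (SE).

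The 3 catalytic subunits of the standard core did not share a sign in blastocysts. Psmb5, which carries the chymotrypsin-like activity, had 240, 135 and 103 in the positive blastocyst columns against 81.6, 119 and 164. It was the member with the highest blastocyst value among genes with a mean of at least 50, at 0.40 ± 0.55 (SE, unadjusted p = 0.469) in the authors' deposited table, and its columns overlapped. Without positive column 1 the log2 ratio of its reads was -0.03. Psmb6, with the caspase-like activity, had 288, 240 and 190 against 369, 207 and 316 and a deposited value of -0.31 ± 0.41 (SE) in the authors' deposited table. Psmb7, with the trypsin-like activity, had 303, 276 and 251 against 565, 328 and 322, with no overlap and -0.55 ± 0.38 (SE) in the authors' deposited table. Without negative column 1 the log2 ratio of its reads was -0.23. In ES cells Psmb5 had 89.4 and 115 against 115 and 36.7, so that its value of 0.27 in the authors' deposited table rested on the low count of negative column 2.

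The inducible subunits Psmb8, Psmb9 and Psmb10, which replace the standard catalytic subunits in the immunoproteasome, were at or near 0. In blastocysts Psmb8 had no read, all 60 reads of Psmb9 were in negative column 1, and Psmb10 had 22 reads in positive column 2 and 10 in negative column 2. In ES cells they had between 1 and 14 reads in any column. Psmb9 had a deposited log2 fold change of -6.17 ± 3.30 (SE, unadjusted p = 0.0616) in blastocysts in the authors' deposited table, and its reads came from a single column. The thymus subunit Psmb11 is only in the blastocyst table, with 2 reads.

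**Figure D2:**
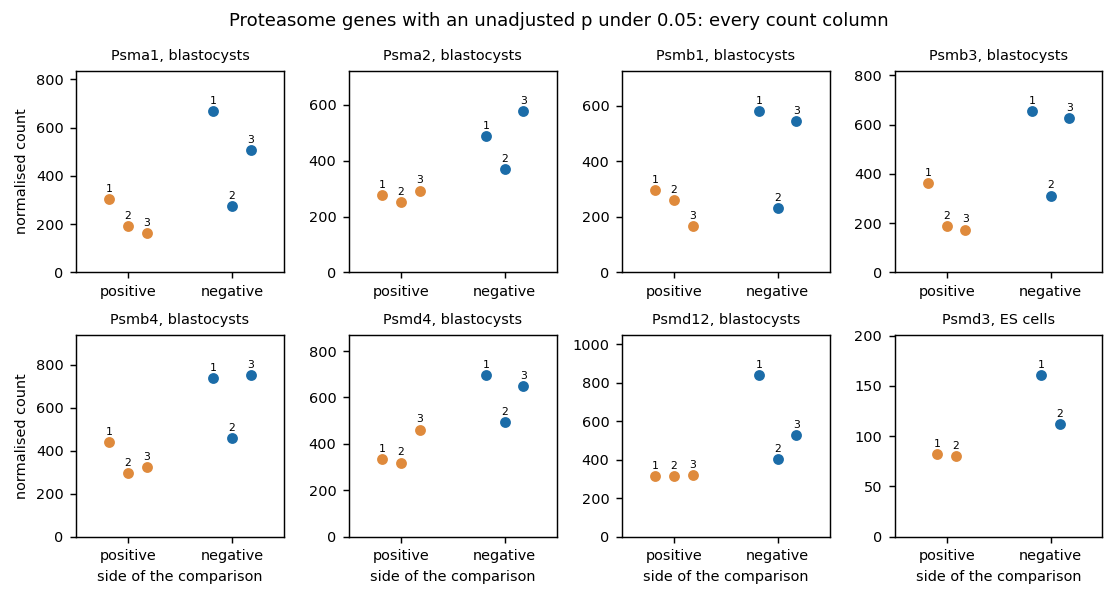
Normalised count in every count column (points, numbered within a side) of the 7 proteasome genes with an unadjusted p under 0.05 in blastocysts and of Psmd3 in ES cells, by side of the comparison. In the blastocyst panels negative columns 1 and 3 are above all positive columns, and negative column 2 is the lowest of its side.

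All 6 ATPases of the regulatory particle were negative in blastocysts, from -0.67 to -0.13 with a median of -0.50, and none had an unadjusted p under 0.05. Psmc1 (-0.67), Psmc5 (-0.62), Psmc2 (-0.51) and Psmc4 (-0.50) were the lower 4, and Psmc6 (-0.35) and Psmc3 (-0.13) the nearer to 0, as given in the authors' deposited table. For Psmc5 the positive columns were 451, 365 and 448 and the negative columns 851, 493 and 596. For Psmc2 they were 383, 463 and 453 against 696, 535 and 610. These were the 2 of 6 ATPase genes whose sides did not overlap, where 6.64% of 9010 blastocyst genes stood apart and lower. In ES cells 3 ATPases were negative and 3 positive, with a median of 0.01. There Psmc5 had 66.3 and 55.3 against 39.0 and 45.4, and Psmc2 had 106 and 101 against 120 and 156. The ES columns of both genes stood apart, in opposite directions, at 0.36 ± 0.31 and -0.32 ± 0.27 (SE) in the authors' deposited table. Of 8794 ES genes 20.3% stood apart and higher and 20.5% apart and lower.

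The 11 non-ATPase subunits were all negative in blastocysts as well, from -0.91 to -0.10 with a median of -0.54. Psmd12 (chr11:107479484-107504362), a lid subunit, had 313, 313 and 318 in the positive columns and 840, 401 and 526.5 in the negative ones. Its positive columns were nearly equal and lay below every negative column, with -0.91 ± 0.37 (SE, unadjusted p = 0.0136) in the authors' deposited table. Psmd4 (chr3:95032694-95042614), a ubiquitin receptor, had 333, 319 and 462 against 696, 495 and 650, without overlap, and -0.73 ± 0.33 (SE, unadjusted p = 0.0295) in the authors' deposited table. Psmd14, the deubiquitinase of the lid, had 268, 248 and 272 against 549, 390 and 285. Its sides did not overlap either, although negative column 3 was close to the positive ones, and the authors' deposited table gave -0.64 ± 0.38 (SE, unadjusted p = 0.094). Psmd1, a scaffold of the base, had 892, 503 and 475 against 1367, 488 and 1121, which overlapped. For Psmd2, the other large base scaffold, no unique set of reads was found, and the authors' deposited table gave -0.10 ± 0.31 (SE).

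Psmd3 (chr11:98682554-98695979), a lid subunit, was the only member with an unadjusted p under 0.05 in ES cells. It had 82.2 and 80.3 in the positive columns against 161 and 112 in the negative ones, without overlap, and the authors' deposited table gave -0.57 ± 0.28 (SE, unadjusted p = 0.0423). As many as 20.5% of 8794 ES genes stood apart and lower. In blastocysts its columns overlapped, at 833, 861 and 608 against 1150, 673 and 1437, with -0.50 ± 0.34 (SE) in the authors' deposited table. Psmd7, a lid subunit, had the highest ES value among members, 0.38 ± 0.30 (SE) in the authors' deposited table, with 93.4 and 67.2 against 61.8 and 49.3. Of the 11 non-ATPase subunits, 8 were negative and 3 positive in ES cells, with a median of -0.03.

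The assembly chaperones were negative in blastocysts but less precisely measured. The authors' deposited table gave the base chaperones Psmd5, Psmd9 and Psmd10 values of -0.21 ± 0.44, -0.48 ± 0.67 and -0.54 ± 0.77 (SE). The columns of Psmd9 spread from 35.7 to 146 over the positive columns and from 62.4 to 161 over the negative ones. The core chaperones Psmg1 to Psmg4 ranged from -1.27 ± 1.28 (SE, Psmg4) to -0.19 ± 0.62 (SE, Psmg2) in the authors' deposited table. For Psmg4 the counts were 22.8, 36.5 and 0 against 54.4, 8.92 and 80.6. None of the 7 chaperone genes had sides apart in blastocysts. Of 9010 genes with a mean of at least 20, 6.64% had every positive column lower and 6.0% every positive column higher. In ES cells Psmd5 had 137 and 105 against 167 and 177, and Psmg4 had 20.0 and 9.22 against 28.5 and 28.0. Both stood apart at -0.40 ± 0.26 and -0.43 ± 0.33 (SE) in the authors' deposited table, where 20.5% of 8794 ES genes stood apart and lower.

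Among the 4 activators, 2 were positive and 2 negative in blastocysts. Psme1 and Psme2 encode the interferon-inducible activator. Psme1 had 265, 219 and 91.4 against 147, 80.3 and 219, and Psme2 had 37.1, 12.2 and 13.7 against 64.3, 11.1 and 31.6; both overlapped. Psme4, the activator linked to histone degradation, had 1054, 1013 and 1086 in the positive columns against 710, 1217 and 575, with 0.33 ± 0.33 (SE) in the authors' deposited table. It was low in negative columns 1 and 3, where most other members were high. The nuclear activator Psme3 had 438, 416 and 528 against 583, 609 and 616, without overlap, and -0.39 ± 0.30 (SE) in the authors' deposited table. In ES cells Psme3 had 141 and 163 against 111 and 119, also without overlap but in the other direction, with 0.32 ± 0.26 (SE) in the authors' deposited table. Whether the 2 tables have the same side positive is not stated, so these opposite signs were not compared. The inhibitor Psmf1 had 81.4, 85.3 and 133 against 155, 178 and 201 in blastocysts, without overlap, and -0.84 ± 0.49 (SE, unadjusted p = 0.088) in the authors' deposited table. Its ES columns, 35.9 and 31.6 against 53.2 and 29.95, overlapped. Psmc3ip, which is no proteasome subunit, had 8.57, 16.2 and 22.9 against 23.5, 20.1 and 37.4 in blastocysts, which overlapped.

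The blastocyst columns of the members did not divide by side alone. Among the 39 members with a mean of at least 50 and recovered reads, the median log2 deviation from a gene's own mean was -0.10, -0.19 and -0.29 in the positive columns and 0.49, -0.15 and 0.42 in the negative ones. Negative column 2 thus lay among the positive columns. Negative column 1 held the highest value of 22 of these 39 genes and negative column 3 that of 13. Every positive column lay below every negative column for 10 of 43 members with a mean of at least 20, against 6.64% of 9010 genes, and the opposite held for 0 of 43, against 6.0% of genes. Without negative column 2 the count was 32 of 43, against 17.7% of genes, and without any other column it was 11 to 13, against 10.4% to 13.2% of genes. Leaving out a column can only keep or raise such a count. Negative column 2 stood out in these same values, so the 32 is no separate evidence that the sides differ. In ES cells the positive side was apart and lower for 9 of 42 members, against 20.5% of 8794 genes, and apart and higher for 4, against 20.3% of genes. The ES column medians were -0.05 and -0.01 for the positive columns against 0.09 and -0.15 for the negative ones.

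**Figure D3:**
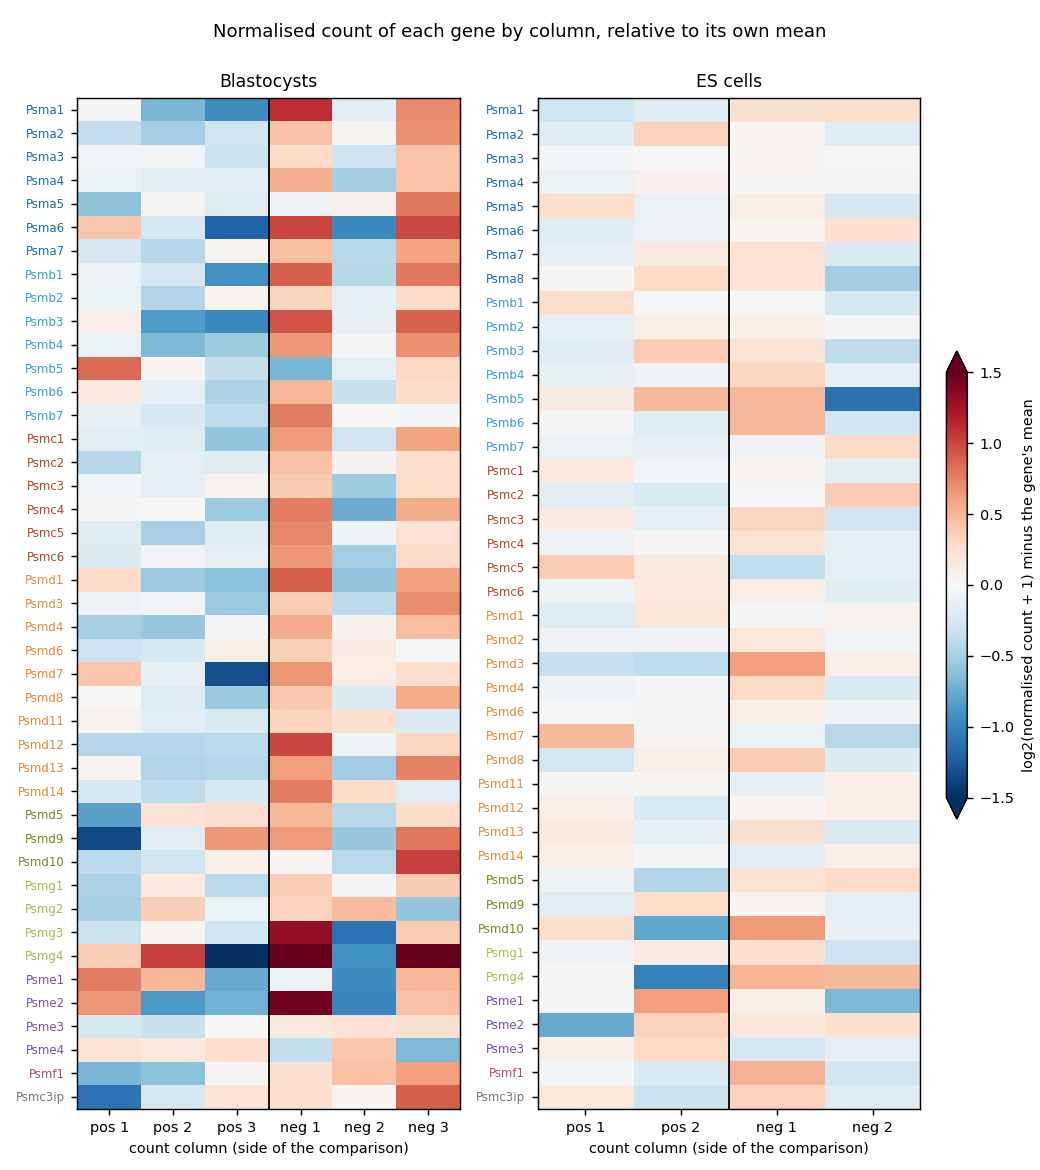
Deviation of each proteasome gene (rows, names coloured by role as in the plot of fold changes) from its own mean over columns, as log2(normalised count + 1), in each count column of the positive (pos) and negative (neg) side, for genes with a mean of at least 20. In blastocysts negative columns 1 and 3 are red for most rows and negative column 2 resembles the positive columns; ES deviations are smaller.

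Exon length and lineage markers also differed between the blastocyst columns. Over all tested blastocyst genes with a mean of at least 50, the median deviation of genes with up to 2 kb of exon was 0.13 in negative column 1 and 0.33 in negative column 3, and that of genes over 10 kb was -0.09 and -0.30. The proteasome genes had a median of 2.81 kb of exon against 4.78 kb for these genes. By length class the members' median log2 fold change was -0.54 up to 2 kb (11 genes), -0.52 from 2 to 4 kb (19 genes) and -0.50 from 4 to 10 kb (9 genes), where all tested genes had -0.24, -0.10 and 0.05. With the median of all genes of the same length class subtracted, the members' median was -0.41. Summed over the 7 of 8 pluripotency genes with recovered reads, the positive columns held 1752, 888 and 892 and the negative columns 1964, 1721 and 2394. The means of all 8 genes summed to 3353, above each of these sums, so much of the signal lay outside these 7. Of all 8 pluripotency genes 2 had a positive and 6 a negative log2 fold change. The 4 of 6 primitive endoderm genes with reads summed to 1742, 1646 and 1138 against 1894, 1980 and 2236. The 2 of 8 trophectoderm genes with reads summed to 812, 917 and 1335 against 683, 1087 and 495, lowest in negative columns 1 and 3. These 2 hold a small part of the list's signal, since the means of all 8 genes summed to 21144. Of all 8 trophectoderm genes 5 had a positive and 3 a negative log2 fold change. The 4 primitive endoderm genes with reads had a higher sum in every negative column, number 2 included, than in any positive one. The means of all 6 genes of that list summed to 5267, so most of its signal lay outside these 4. Of the 6 genes 2 had a positive and 4 a negative log2 fold change. The part of length and lineage in the members' values was not tested. In RNA of whole embryos, fewer cells of a type and less RNA per cell cannot be told apart.

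In ES cells the 8 fibroblast genes summed to 544 and 482 in the positive columns against 511.5 and 1971 in the negative ones, so that negative column 2 held the most. That column also held the lowest value of 17 of the 34 members with a mean of at least 50 and recovered reads. The same share over all genes is not given here. Over all tested ES genes with a mean of at least 50, median deviations in that column rose with exon length. They were -0.19 up to 2 kb, -0.04 from 2 to 4 kb, 0.05 from 4 to 10 kb and 0.13 above. Members had -0.15 up to 2 kb, -0.18 from 2 to 4 kb and 0.09 from 4 to 10 kb. Their median exon length was 2.81 kb against 5.49 kb for these genes. The parts of fibroblast RNA and of exon length in the ES values were not tested.

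**Figure D4:**
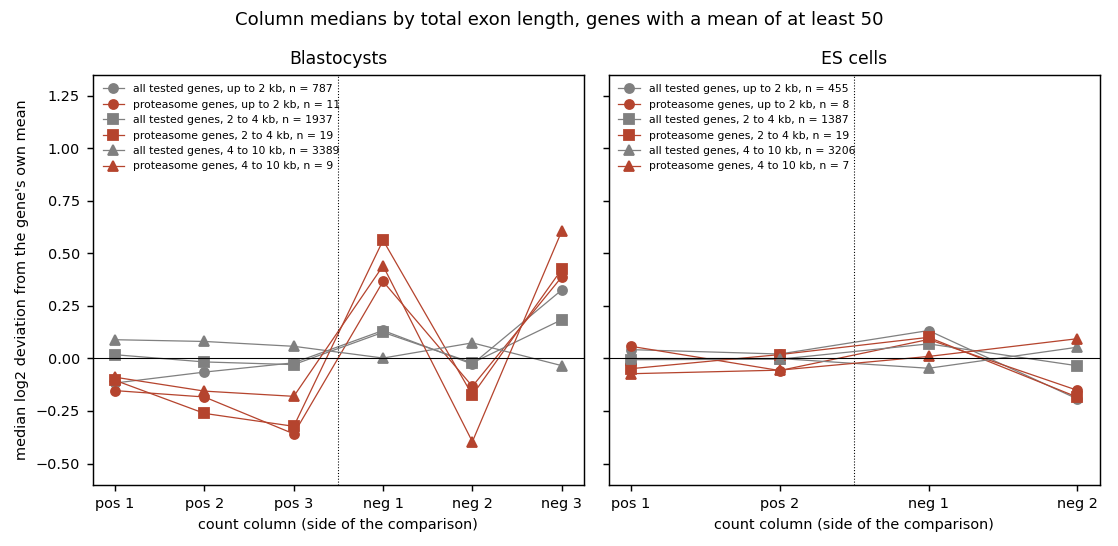
Median log2 deviation from a gene's own mean (y axis) in each count column (x axis), for proteasome genes (red) and all tested genes (grey) with a mean of at least 50, in 3 classes of total exon length. In blastocysts the red lines lie above the grey ones in negative columns 1 and 3 and below them elsewhere for each length class.

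Levels are compared between genes per kb of exon, within a table only. Exon length counts every annotated exon of a gene, used in the material or not, so levels depend on the annotation too. In blastocysts the constitutive inner ring genes Psmb1 to Psmb7 spanned 75.4 to 256 normalised counts per kb and the outer ring genes above 0 had up to 193. The ATPases spanned 104 to 383 and the non-ATPase subunits 79.9 to 378. Psmc5 was the highest ATPase and Psmd2 the highest non-ATPase gene. The base chaperones spanned 14.6 to 43.1, below these ranges, the core chaperones spanned 15.8 to 109, overlapping them, and the inhibitor Psmf1 was at 21.6. In ES cells the constitutive inner ring genes spanned 49.5 to 147 and the ATPases 24.0 to 137. The base chaperones there spanned 4.87 to 20.3, the core chaperones 3.17 to 38.6, and Psmf1 was at 5.85. Psme4 was the highest activator in ES cells, at 148, and Psme3 in blastocysts, at 180. Members therefore ranked differently in the materials. Psmc5 was the highest member of all in blastocysts (383, percentile 97.7 of tested genes), while in ES cells it was the lowest ATPase but Psmc2 (36.9, percentile 80.3).

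**Figure D5:**
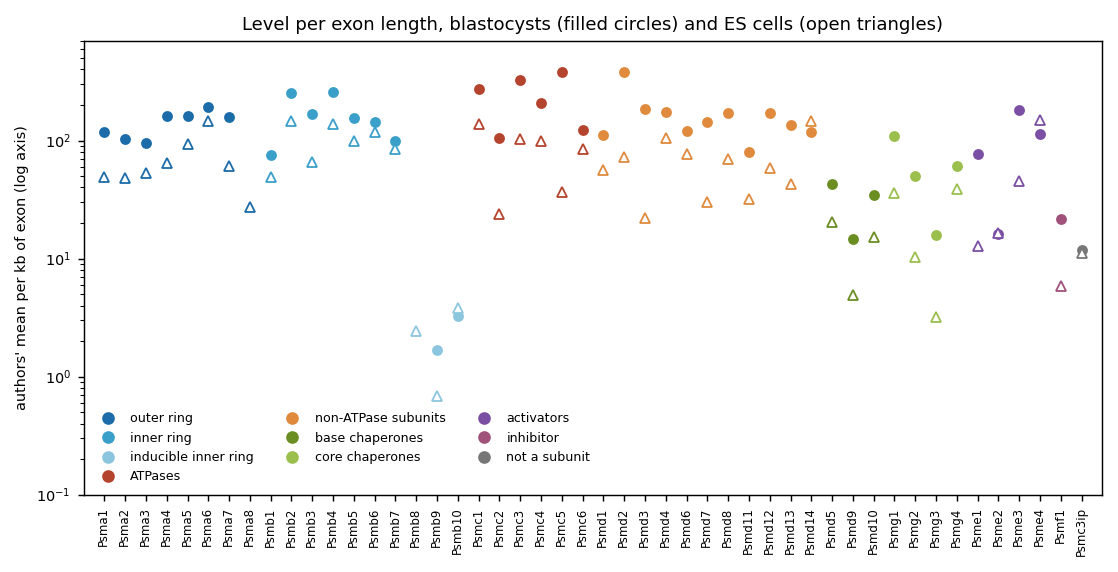
Authors' mean per kb of exon (y axis, log scale) of each proteasome gene (x axis, coloured by role), in blastocysts (filled circles) and ES cells (open triangles); the tables were normalised separately, so heights compare genes within a material. Inducible inner ring genes lie at the bottom in blastocysts; in ES cells the core chaperone Psmg3 (3.17) lies below Psmb10 (3.82).

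Genes of the same pathway outside the naming rule were read from a list of 32. In blastocysts 30 of them were tested, 17 negative and 13 positive with a median of -0.06, and in ES cells 29 were tested, 15 negative and 14 positive with a median of -0.01. None had an unadjusted p under 0.05 in either table. Adrm1, a ubiquitin receptor of the regulatory particle, had 367, 353 and 361 in the positive blastocyst columns against 432, 544 and 535, without overlap, and -0.48 ± 0.32 (SE, unadjusted p = 0.13) in the authors' deposited table. In ES cells it had 74.2 and 69.8 against 117 and 95.7, also without overlap, and -0.42 ± 0.29 (SE, unadjusted p = 0.141) in the authors' deposited table. Pomp, the core maturation chaperone, had -0.32 ± 0.49 and 0.16 ± 0.31 (SE) in the authors' deposited tables of blastocysts and ES cells. Sem1, the smallest lid subunit, had -0.42 ± 0.81 and 0.18 ± 0.29 (SE) there. Nfe2l1 had 442, 688 and 679 in the positive blastocyst columns against 397, 531 and 363, which overlapped, and 0.49 ± 0.34 (SE, unadjusted p = 0.155) in the authors' deposited table. In ES cells it had -0.01 ± 0.23 (SE) in the authors' deposited table. Ddi2, the protease that activates Nfe2l1, had 0.20 ± 0.40 and 0.06 ± 0.26 (SE) in the authors' deposited tables of blastocysts and ES cells.

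Because most members lay together in blastocysts, their promoters were searched for the core of the antioxidant response element, TGACNNNGC, on both strands of RefSeq windows (GRCm38.p6) from 250 bases before to 50 after a start site. Windows were matched by symbol for 40 of the 48 members, and 6 of these genes, or 15.0%, held the core, against 14.0% of 27025 genes with a window. The 6 were Psmb5, Psmb6, Psmc6, Psmd9, Psmd12 and Psme4. Stretches of 4 of them that end before the start site are shown to set members of different blastocyst values side by side, with the core in capitals, 5′ to 3′ on the gene's strand (Psmb5 at chr14:54618014-54618062, minus strand; Psmc6 at chr14:45329577-45329625, Psmd9 at chr5:123228139-123228187 and Psmd12 at chr11:107479278-107479309, plus strand).
Psmb5: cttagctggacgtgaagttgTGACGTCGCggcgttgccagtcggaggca
Psmc6: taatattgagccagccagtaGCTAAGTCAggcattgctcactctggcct
Psmd9: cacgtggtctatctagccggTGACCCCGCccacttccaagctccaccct
Psmd12: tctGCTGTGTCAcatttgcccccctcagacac
The core reads in the forward direction in Psmb5 and Psmd9, where it begins 47 and 31 bases before the start site, and as its reverse complement in Psmc6 and Psmd12, where it begins 227 and 247 bases before it. Their blastocyst values in the authors' deposited table were 0.40 (Psmb5), -0.48 (Psmd9), -0.35 (Psmc6) and -0.91 (Psmd12), and those of the other genes with the core were -0.31 (Psmb6) and 0.33 (Psme4), so that 2 were positive and 4 negative. A match of letters is a description of these windows only.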

How the data were processed

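Each material has 1 deposited table of comparison results with a mean signal, a log2 fold change and its SE on the log2 scale, a Wald score, and p-values; per the file headers they are of the kind DESeq2 writes. The submitters' processing notes name STAR 2.4.0b, Subread 2.0.1, featureCounts and DESeq2 1.34.0 and the build GRCm38; the direction of the comparison is not given in the sources used here. The deposited signal, the authors' mean of normalised counts, was solved for whole reads: 16783 of 16957 blastocyst genes and 12842 of 12863 ES genes gave a single solution, in blastocysts mostly by matching the deposited fold change and SE within 3e-06. Of blastocyst read values above 0, 95.5% were even. Reads were not tested, and intervals of counting were not computed. Genes copied elsewhere (Psme2 and Psme2b, processed pseudogenes) may share reads. Calls use the authors' adjusted p under 0.05; exon lengths are from GENCODE. Solving and adjustment were tried on simulated data, and the outcome is not given here. The simulated counts had no excess of even values, so they cannot speak to that trait of the blastocyst reads. Columns of per-sample values left unused numbered 0. Members, lists, roles and the rule for named genes (lowest p-values, the 5 highest and 5 lowest per table, fixed role genes) were chosen with earlier results of these data known. Python 3.11.15 with numpy 2.4.6, pandas 2.3.3, scipy 1.17.1 and numba 0.67.0 was used. Alternatives were a threshold of 0.01, adjustment over other gene sets, a mean of at least 50, rescaled statistics, centring, and each column left out.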

Additional observations from a re-analysis of the deposited data

Results flagged for a closer look

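Of the gene models with the proteasome prefix that are in the blastocyst table only and were outside the comparisons, 3 had more than 3 reads in all, and Psmb11 had 2. Psmb6-ps2, a processed pseudogene, had 18 reads in all, of which 16 were in positive column 1 and 2 in negative column 3. Psmb5-ps, a processed pseudogene, had 8 reads, all in positive column 1. Psme2b, a near-identical copy of Psme2, had 8 reads, all in negative column 1, where Psme2 also had its highest count. These are totals over 6 columns, and 95.5% of blastocyst read values were even, so that reads may not be independent molecules and the limit of 3 reads covers counting error only. Reads shared with the parent genes cannot be told apart.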

How the results depend on the processing

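The count of called members stayed at 0 in both materials under a threshold of 0.01, adjustment over every gene with a p-value, a mean of at least 50 and, added after seeing the data, statistics rescaled to a robust SD of 1; at an unadjusted p under 0.05 the deposited DESeq2 statistics gave 7 and 1. With rescaled statistics these counts were 6 and 1. The blastocyst median of -0.53 stayed negative throughout: -0.50 over members with a mean of at least 50, -0.49 after centring on all genes, -0.50 from recovered reads, -0.41 against genes of the same exon length (added after seeing the data), and -0.68 to -0.37 with each column left out. The ES median of -0.04 changed sign when a column was left out, from -0.11 to 0.12, the latter without negative column 1. Single members' values from reads were the log2 ratio over all columns and that with each column left out. Of these, 300 of 301 in blastocysts (43 members) and 177 of 210 in ES cells (42 members) lay within 1 SE of the deposited value. The values of a member share columns, and most blastocyst reads were picked to match the deposited fold change and SE. These counts are therefore no independent check. No paired analysis was possible because the tables hold no value per labelled sample and the recovered columns carry no replicate number. Low counts left Psmb9 and Psmb10 with SEs of 3.30 and 3.17 on the log2 scale in blastocysts.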
